A study of Mus musculus with 35 samples.

Results

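Transcripts were compared between primary mouse embryonic fibroblasts (MEFs) exposed for 8 h to methyl methanesulfonate (MMS), an agent that methylates DNA, and control MEFs at 8 h. The 8 arrays of this comparison, 4 per group, were taken by their titles out of 35 arrays in the series. Both groups were unmodified cells of C57BL/6J embryos without head and liver, a mixed population of mesenchymal cells from several organs, grown at low oxygen. Treated cultures received 40 μg/mL MMS in fresh medium, and control cultures had 0 μg/mL. Embryo day and passage number differ between the sample labels and the study's text, so neither is given here. The study's methods speak of quadruplicate experiments without saying whether the 4 replicates were separate cultures. The p-values rest on a spread within groups that was pooled over all 35 arrays. They reflect only how far such arrays vary, which may be technical. Fewer cells of a type and less RNA per cell cannot be told apart in such bulk samples.

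Values are RMA signals on a log2 scale, on which a difference of 1 is a 2-fold change. Expression at 8 h differed between MMS-treated and control cells for about every other gene tested. Of 14135 genes, 4061 (28.7%) were higher and 3527 (25%) were lower in MMS-treated cells at a Benjamini-Hochberg adjusted p under 0.05 in limma. Large changes were mostly falls: 745 genes (5.27%) were called and at least 2-fold lower, against 435 (3.08%) at least 2-fold higher, and 107 were at least 4-fold lower against 43 at least 4-fold higher. The median over all genes was 0.06. The 4 MMS arrays lay wholly on 1 side of the 4 control arrays for 6733 genes (47.6%). Arrays of 1 group correlated at r = 0.992 to 0.996 and arrays of different 8 h groups at 0.96 to 0.964, across genes, which are not independent replicates.

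All 15 fibroblast markers reached log2 4.4, the limit used here for a measurable signal (the 40th percentile of all values), in both 8 h groups, and 12 of them fell. Their mean per array was 10.29 to 10.37 in MMS-treated cells, against 11.04 to 11.09 in control cells. Macrophage markers were also present in the 8 h arrays. Their mean over 19 genes was 6.88 to 7.14 in MMS arrays, against 7.53 to 7.75 in control arrays, while the arrays of all other times, MMS and control, had 4.25 to 5.71. By this measure the 8 h arrays of both groups stood apart. Of 17 macrophage markers tested, 10 were lower, 1 was higher (the receptor Cd14, by 1.13) and 6 were not called. Csf1r, the growth factor receptor of macrophages, had a log2 fold change of -1.23 ± 0.23 (SE), and its other probe sets gave -0.95 and -0.07. C1qa, a complement subunit, had -1.34 ± 0.26. Adipocyte markers were lower in 3 of 5 cases, with array means of 5.42 to 5.52 in MMS arrays, against 5.68 to 5.86 in control arrays, and skeletal muscle markers were higher in 4 of 11 cases and lower in 2, with means of 5.48 to 5.56 in MMS arrays, against 5.37 to 5.49 in control arrays. Of 18 intestinal markers, 0 were higher and 1 lower between the 8 h groups, where 28.7% of all genes were higher and 25% lower. Of 7 endothelial markers, 2 were higher (28.6%) and 1 lower (14.3%). Only 2 erythroid markers were tested, too few for a reading, and 0 were called. As a measure of RNA integrity, the 3' minus 5' difference of Actb was 0.37 to 0.49 in MMS arrays, against 0.20 to 0.24 in control arrays (difference 0.20, two-sided exact permutation p = 0.029, the smallest that 4 against 4 arrays allow), and 0.13 to 0.45 in all other arrays. For Gapdh it was 0.04 to 0.14 in MMS arrays, against 0.01 to 0.08 in control arrays (exact permutation p = 0.14), and -0.24 to 0.01 in all other arrays. By Gapdh, too, the 8 h arrays of both groups lay above all others, if narrowly (lowest 0.0144, against a highest of 0.0133). The part of the macrophage, adipocyte and muscle transcripts and of RNA integrity in the results that follow was not tested.

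Fibroblasts build the connective tissue: they secrete collagens, hyaluronan and matricellular proteins, pull on this matrix through integrins and actin stress fibers, and read the tension through the SRF and YAP transcription factors. MMS methylates bases in DNA, which base excision repair and direct reversal remove. Chaperones refold damaged proteins, and the proteasome degrades those tagged with ubiquitin.

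Promoter sequence is shown for 6 genes from lists whose members mostly fell together: mitosis, SRF and contractile genes, and YAP and TEAD targets. Each is the 250 bases before the transcription start in RefSeq (GRCm38.p6), written 5' to 3' on the gene's strand, with the matches in capitals, and a match on the opposite strand appears as the reverse complement. Capitals mark CCAAT and TTTGAA in Ccnb2 and Cdk1, the CArG box, the SRF element, in Srf and Vcl, and CATTCC, the TEAD element, in Ankrd1 and Wwc2.

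Ccnb2, chr9:70421555-70421804, minus strand: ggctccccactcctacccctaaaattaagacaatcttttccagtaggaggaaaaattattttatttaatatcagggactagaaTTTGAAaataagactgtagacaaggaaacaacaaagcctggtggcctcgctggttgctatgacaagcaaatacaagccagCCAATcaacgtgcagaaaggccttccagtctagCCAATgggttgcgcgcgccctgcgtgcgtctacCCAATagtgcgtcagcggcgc

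Cdk1, chr10:69352913-69353162, minus strand: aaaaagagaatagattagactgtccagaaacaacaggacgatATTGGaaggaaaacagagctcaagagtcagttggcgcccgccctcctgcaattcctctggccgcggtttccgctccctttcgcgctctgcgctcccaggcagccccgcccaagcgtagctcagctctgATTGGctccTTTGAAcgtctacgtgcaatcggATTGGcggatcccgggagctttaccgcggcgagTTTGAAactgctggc

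Srf, chr17:46556163-46556412, minus strand: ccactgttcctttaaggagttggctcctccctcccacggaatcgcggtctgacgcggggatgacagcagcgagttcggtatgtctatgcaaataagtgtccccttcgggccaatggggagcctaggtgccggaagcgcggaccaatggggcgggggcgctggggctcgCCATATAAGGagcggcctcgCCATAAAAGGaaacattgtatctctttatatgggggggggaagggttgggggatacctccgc

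Vcl, chr14:20929148-20929397, plus strand: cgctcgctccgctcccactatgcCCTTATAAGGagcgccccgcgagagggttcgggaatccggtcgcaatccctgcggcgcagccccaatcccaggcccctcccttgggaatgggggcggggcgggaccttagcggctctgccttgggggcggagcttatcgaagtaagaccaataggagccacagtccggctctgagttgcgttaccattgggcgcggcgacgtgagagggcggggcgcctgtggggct

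Ankrd1, chr19:36119845-36120094, minus strand: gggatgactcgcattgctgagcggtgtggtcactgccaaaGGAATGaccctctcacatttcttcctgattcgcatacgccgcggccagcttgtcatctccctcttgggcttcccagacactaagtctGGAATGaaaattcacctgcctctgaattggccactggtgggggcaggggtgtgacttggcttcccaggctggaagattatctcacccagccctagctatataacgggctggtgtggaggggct

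Wwc2, chr8:47990545-47990794, minus strand: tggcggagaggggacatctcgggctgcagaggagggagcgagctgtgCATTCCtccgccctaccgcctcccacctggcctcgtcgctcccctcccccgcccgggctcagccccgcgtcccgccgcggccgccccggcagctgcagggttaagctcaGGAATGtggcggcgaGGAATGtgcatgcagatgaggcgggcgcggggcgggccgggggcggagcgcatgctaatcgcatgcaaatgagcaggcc

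These genes were picked because they hold matches, after values were seen, so the shares over whole lists are the better description. The CCAAT box was found in 30 of 40 mitosis promoters (75%), against 35.8% of 11359 promoters of genes tested, searching both strands of the same 250 bases. TTTGAA, a core of the cell cycle homology region, stood in 15 of the 40 (37.5%, against 10.8%), and both motifs in 14 (35%, against 3.99%). CATTCC was present in 14 of 25 promoters of YAP and TEAD genes (56%, against 11%), and the CArG box in 7 of 31 promoters of SRF and contractile genes (22.6%, against 1.27%). In lists that held more rises than falls, the heat shock element, a run of alternating GAA and TTC units, was in 2 of 29 promoters of heat shock chaperones (6.9%, against 0.282%). The metal response element, searched as TGCACNC or TGCGCNC, was in 10 of 21 promoters of metallothionein and zinc transporter genes (47.6%, against 29.1%). For cholesterol synthesis genes, the sterol element TCACNCCAC was in 1 of 19 (5.26%, against 0.968%). A match describes the sequence and is not a binding site. The SRF and the YAP and TEAD lists hold known targets of these factors, so a high share is partly built in. Each share counts all members with a promoter sequence, called or not, and describes the list, not its change at 8 h.

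The direction of change differed by the genomic span of a gene, which is the distance between its annotated RefSeq ends, introns included. Among 910 genes with a span over 160 kb, 538 (59.1%) were lower and 56 (6.15%) higher in MMS-treated cells, whereas among genes of up to 20 kb 16.7% were lower and 33.7% higher. In steps, 16.5% of genes under 5 kb, 20.7% of those of 20 to 40 kb, 43.2% of those of 80 to 160 kb, 60.4% of those of 160 to 320 kb and 56.6% of the 316 over 320 kb were lower, so the share did not grow further in the longest class. The share of higher genes was 28.5%, 33.9%, 14.6%, 6.57% and 5.38% in the same classes. Each MMS array showed this on its own: relative to the control mean, the median of genes over 160 kb was -0.438, -0.444, -0.431 and -0.454 in the 4 MMS arrays, against -0.027, -0.004, -0.015 and 0.047 in the control arrays. For genes of up to 20 kb the medians were 0.144, 0.078, 0.124 and 0.111 in MMS arrays, against 0.01, -0.019, 0.01 and 0.003 in control arrays.

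Falls among long genes were more frequent at higher expression. With a control level under log2 4.4, 7.58% of genes over 160 kb were lower, and the share was 26.9% at 4.4 to 6, 73% at 6 to 8, 87.3% at 8 to 10 and 94.7% above 10. Over genes of any span these shares were 2.06%, 9.89%, 27.8%, 36% and 37%, so the share was higher for long genes in each class of level. A gene near the background of the arrays cannot fall measurably, and these low classes give no reading of a fall. The 316 genes over 320 kb had a median of -0.40, with 5.38% called higher and 56.6% lower. The 172 of them that reached the 60th percentile of all values in control cells had -1.04, with 0% called higher and 83.7% lower. This cut and the level classes used the control group alone. Genes that rose from a low control level were thereby left out or placed in a low class, so these contrasts by level are partly built in. At 1 h the medians of the span classes lay between -0.04 and 0.02. The 25 largest falls had a median span of 70 kb, and 12 of them were over 160 kb (48%). The 15 largest rises had a median span of 4.35 kb, with 0 over 160 kb. The whole set of genes tested had a median of 21.8 kb and 6.45% over 160 kb.

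**Figure D1:**
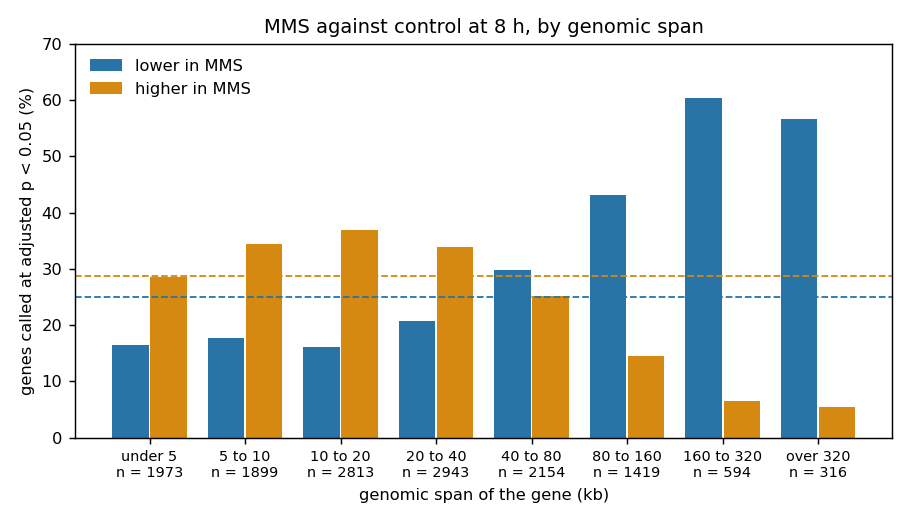
Share of genes called lower (blue) or higher (orange) in MMS-treated than in control cells at 8 h (y axis, %) by class of genomic span (x axis, kb, with the number of genes). Dashed lines give the shares over all genes tested, 25% lower and 28.7% higher. Lower calls reach 60.4% at 160 to 320 kb, where 6.57% of genes were higher.

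The largest fall of all was that of Has2, which makes hyaluronan, a long sugar polymer of the matrix. Has2 had signals of 4.69, 4.55, 4.84 and 4.62 in MMS-treated cells, against 9.09, 9.02, 8.99 and 9.33 in control cells, so the groups lay far apart and MMS arrays were near the detection limit. It was 21.6-fold lower (log2 fold change -4.43 ± 0.11 SE, adjusted p = 1.7e-23), and its second probe set fell by 3.95. Control cells at 0 h had a mean of 8.25. Kif26b, a kinesin family member, had 4.40, 4.09, 4.45 and 4.21 in MMS arrays, against 7.85, 7.67, 7.87 and 8.16 in control arrays, and fell at least 11.2-fold. Its span is 404 kb, and its fold is a bound because the MMS mean lay under the detection limit: for each such gene the brighter group was set against the limit of log2 4.4 itself. The long noncoding RNA Neat1, the scaffold of nuclear paraspeckles, had 5.82, 5.97, 5.57 and 5.42 in MMS arrays, against 9.39, 9.24, 9.43 and 9.11 in control cells (-3.60 ± 0.18, adjusted p = 2.6e-16), but its other probe set changed by only -0.41. Trib2, a pseudokinase, was 11.2-fold lower by its leading probe set, and its second probe set fell by 0.78.

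Some of the 25 largest falls were in genes of secreted and surface proteins. Fgf7, a growth factor by which fibroblasts act on epithelia, had 5.75, 6.16, 5.50 and 5.74 in MMS-treated cells, against 8.77, 8.95, 8.89 and 8.67 in control cells (8.18-fold lower, adjusted p = 6.3e-21). Epha3, an ephrin receptor, at least 6.4-fold lower, had 3.85, 3.48, 3.54 and 3.8 in MMS arrays, against 6.86, 7.28, 6.90 and 7.29 in control cells. All 4 MMS values of Epha3 lay under the detection limit, while its other probe sets changed by -1.22 to 0.07. Ccbe1 (-3.14), needed for lymphatic vessel growth, Cdh10 (-3.01, with its other probe set at -0.23), a cadherin, Ndnf (-2.90), a secreted neurotrophic protein, and Pcdh18 (-2.79), a protocadherin, fell as well. Ccn5, a matricellular protein, had 6.27, 6.37, 6.30 and 6.58 in MMS arrays, against 9.29, 9.22, 9.08 and 9.33 in control arrays. Col11a1, a fibrillar collagen chain, had 5.58, 5.98, 5.63 and 5.35 in MMS arrays, against 8.30, 8.40, 8.29 and 8.30 in control cells. The acute phase gene Saa3 varied most within its groups, with 6.91, 5.58, 5.43 and 5.99 in MMS arrays, against 9.67, 7.47, 8.54 and 9.14 in control arrays. These Saa3 values did not overlap, and control cells at 0 h had a mean of 4.60.

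Other genes of this set encode transcription factors. Prrx1, a homeobox factor of limb and facial mesenchyme, had 8.16, 8.23, 7.72 and 8.15 in MMS-treated cells, against 10.86, 10.90, 10.91 and 10.85 in control cells (7.04-fold lower, adjusted p = 1.2e-21), and its 5 probe sets fell by 1.69 to 3.76. Klf2, whose gene spans only 2.59 kb, had 6.30, 5.80, 5.87 and 5.65 in MMS arrays, against 8.73, 8.79, 8.71 and 8.75 in control cells. Mecom, a zinc finger regulator with a span of 558 kb, had 6.45, 6.67, 6.32 and 6.59 in MMS arrays, against 9.36, 9.23, 9.31 and 9.33 in control cells, while its other probe set gave -0.16. Bnc2 (-2.71), Zfpm2 (-2.67) and Atxn1 (-2.82), all nuclear proteins with spans of 409 to 450 kb, belong to the same set. Hivep3 was lower by 2.96 on its leading probe set only: its 4 other probe sets gave -0.02 to 0.43, and 2 of these were called higher, so its direction is uncertain. The remaining genes of the set were Klhdc8a (-3.05), Kcnab1 (-2.92), a potassium channel subunit, Rgs4 (-2.89, with its other probe sets at -1.63 and 0.04), which limits G protein signaling, C130075A20Rik (-2.85) and Lmo7 (-2.70). Among the 223 genes named and called in the text, 133 had more than 1 probe set above the detection limit, and in 35 of these at least 1 probe set was not called. Those not given beside their gene were, among falls, of Mylk (-0.13), Gli2 (-0.15), Gli3 (-0.09), Zfp521 (-0.07), Rad18 (-0.02) and Kif11 (-0.17). Falls with such a probe set were also Wnt5a (-0.22), Sdc2 (-0.09), Elovl6 (-0.11), Scd2 (-0.30), Nr2f2 (-0.26), Wwc2 (-0.35) and Igfbp5 (-0.43). Among rises they were of Tob1 (-0.02), Klf5 (0.24), Dusp10 (0.27), Fjx1 (0.05) and Nr4a2 (-0.07 and 0.20).

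**Figure D2:**
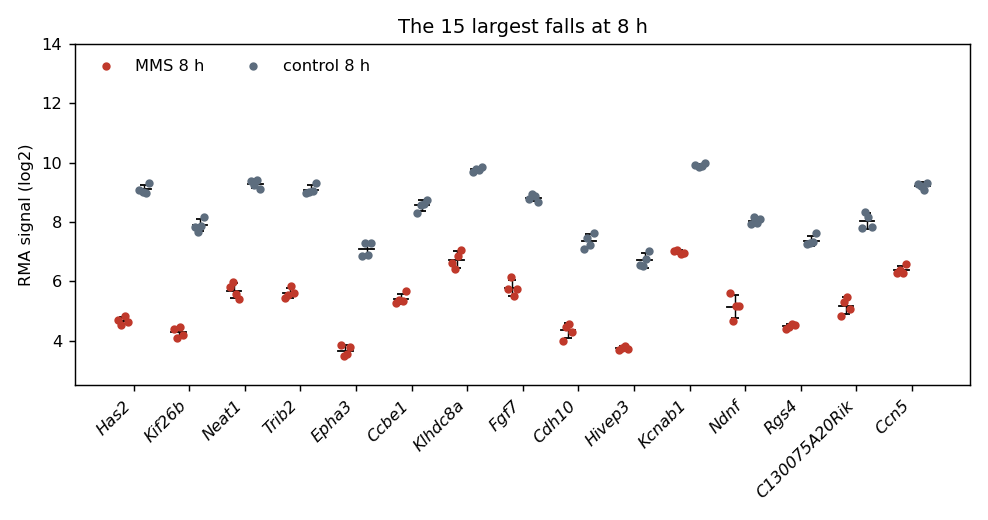
RMA signal (y axis, log2) of the 15 genes with the largest falls at 8 h (x axis), with a point per array, MMS 8 h in red on the left and control 8 h in grey on the right of each gene. Black lines give the mean and SD over 4 arrays, and in every gene the MMS points lie below all control points, as for Has2 with 4.55 to 4.84 against 8.99 to 9.33.

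Most classes of matrix genes held more falls than the 25% of all genes. Of 24 collagen chains tested, 17 fell and 0 rose, with a median of -0.55, beside 0.06 over all genes. Col8a1 had 8.31, 8.90, 8.28 and 8.50 in MMS-treated cells, against 10.89, 11.15, 11.02 and 11.06 in control cells. Col3a1, a major fibrillar chain, was 2.32-fold lower and Col1a1, the chief chain of type I collagen, 1.65-fold lower, with 10.62, 10.19, 10.45 and 10.41 in MMS arrays, against 11.03, 11.28, 11.03 and 11.23 in control arrays. In control cells at 0 h Col1a1 had a mean of 13.89, so both 8 h groups stood far under that level. Col6a3 (-0.92) and Col5a1 (-0.89) moved likewise, and Col4a6 (0.10, adjusted p = 0.58) lay nearest to no change. Enzymes that modify and crosslink collagen were mixed, with 4 of 18 higher and 5 lower: Loxl3, a lysyl oxidase, fell by 1.73 and P4ha3, a prolyl hydroxylase, by 1.02, whereas the prolyl hydroxylase P3h1 rose by 0.55.

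Of 17 matricellular proteins, which regulate how cells hold the matrix, 15 fell and 0 rose, with a median of -0.69. Thbs1 had 12.16, 12.06, 12 and 12.13 in MMS-treated cells, against 13.42, 13.35, 13.41 and 13.40 in control cells, which is a tight separation in an abundant message (2.47-fold lower, adjusted p = 1.4e-19). Ccn4 was 3.03-fold lower and Smoc2 2.06-fold lower. Tnc, or tenascin C, fell by 0.92 on its leading probe set and by 3.99 on the other. In the hyaluronan and proteoglycan list, 12 of 24 fell and 4 rose. Beside Has2, the hyaluronan-degrading Cemip (-1.44, with its other probe sets at -0.26 and 0.31) and the hyaluronan-binding Vcan (-1.22) were lower, as were the syndecans Sdc2 (-1.08) and Sdc4 (-0.98). The hyaluronidase Hyal2 rose by 0.53, and the proteoglycan Bgn gave -0.05 (adjusted p = 0.43). Fbn2, a fibrillin, was 3.63-fold lower, and Eln, elastin, gave -0.07 (adjusted p = 0.76) within a list in which 14 of 24 fell and 1 rose.

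Matrix proteases moved in both directions. Of 32 proteases and inhibitors, 20 fell and 5 rose. Adamts5, which cleaves aggrecan, had 5.46, 5.50, 5.55 and 5.54 in MMS-treated cells, against 7.72, 8.11, 7.74 and 8.04 in control cells, and Adamts12 was 4.27-fold lower. The metalloproteinases Mmp12 and Mmp10 were among the 5 that rose: Mmp12 had 8.41, 8.44, 8.56 and 8.52 in MMS arrays, against 6.10, 6.07, 5.67 and 6.23 in control cells (5.52-fold higher), and Mmp10 was 3.59-fold higher. Plaur, the urokinase receptor, was 1.47-fold higher. The inhibitor Timp1 gave 0.03 (adjusted p = 0.77). Mmp12 is also a gene of macrophages, and the macrophage markers were lower in MMS arrays, as given above.

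Adhesion and contractile genes were lower in a similar manner. Of 17 integrins, 11 fell and 0 rose, with a median of -0.56. Itga6, a laminin receptor subunit, had 7.75, 8.11, 7.99 and 8.03 in MMS-treated cells, against 10.07, 10.17, 10.09 and 10.15 in control cells. Itgb3 was 3.58-fold lower, although its second probe set changed by -0.08, and Itga4 was 3.14-fold lower. Cdh11, the cadherin of mesenchymal cells, had 9.92, 10.21, 10.09 and 10.04 in MMS arrays, against 12.10, 12.07, 12.23 and 12.34 in control cells (4.35-fold lower), and Cdh2 was 2.90-fold lower. Over the 32 cadherins and protocadherins, 11 fell and 2 rose.

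SRF drives genes of the actin cytoskeleton, and 30 of 35 SRF and contractile genes fell while 0 rose (median -0.47). Vcl, vinculin, a protein of focal adhesions, had 11.60, 11.77, 11.69 and 11.59 in MMS-treated cells, against 12.79, 12.83, 12.86 and 12.83 in control cells (2.24-fold lower, adjusted p = 7.3e-16). Mylk, the myosin light chain kinase, was 4.44-fold lower, Myh10, a nonmuscle myosin, 2.64-fold lower, and Mrtfa, a coactivator of SRF, 2.01-fold lower. Srf itself was 1.56-fold lower. Of 33 YAP and TEAD targets and regulators, 21 fell and 4 rose (median -0.41). Ankrd1 had 9.54, 9.76, 9.62 and 9.69 in MMS arrays, against 11.15, 10.89, 11.23 and 11.10 in control cells, and Crim1 and Myof were 4.27-fold and 3.31-fold lower. The partners Tead1 (-1.39), Wwtr1 (-1.03) and Yap1 (-0.48), the regulator Wwc2 (-1.15) and the classical target Ccn2 (-0.62) were lower too, and Fjx1 rose by 0.51. Srf, Wwtr1, Yap1 and Ccn2 were named after their values were seen.

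**Figure D3:**
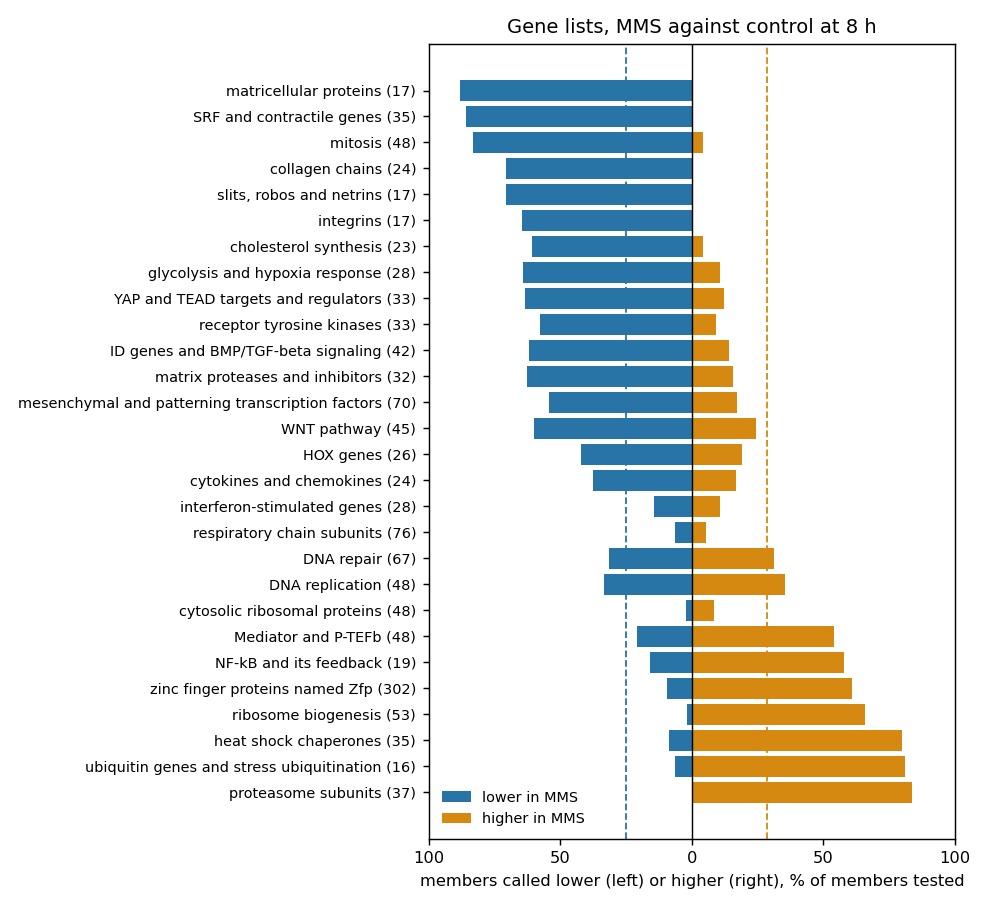
Share of the tested members of 28 gene lists (y axis, with the number tested) that were called lower (blue, left) or higher (orange, right) in MMS-treated than in control cells at 8 h (x axis, %). Dashed lines give the shares over all genes tested, 25% lower and 28.7% higher. Matricellular genes lie at 88.2% lower and proteasome subunits at 83.8% higher.

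In the BMP and TGF-beta pathway, 26 of 42 genes fell and 6 rose (median -0.45). The ligand Bmp4 had 4.79, 5.63, 5.02 and 6.0 in MMS-treated cells, against 7.86, 7.61, 7.83 and 7.66 in control cells, and Tgfb3 was 4.18-fold lower. All 4 ID genes, which encode inhibitors of basic helix-loop-helix factors and are direct BMP targets, were lower: Id4 by 2.03, Id2 by 1.01, Id1 by 0.99 and Id3 by 0.98 on the log2 scale. Id1, Id2 and Id3 were named after their values were seen. The ligand-binding antagonists Fst (4.01-fold) and Bmper (3.8-fold) were lower as well. The signal transducer Smad1 and the antiproliferative Tob1 rose, by 0.91 and 1.05. Among 45 WNT pathway genes, 27 fell and 11 rose (median -0.41). The secreted antagonist Dkk2 had 5.34, 5.20, 5.17 and 4.82 in MMS arrays, against 7.74, 8.13, 7.69 and 7.33 in control cells. The ligand Wnt5a was 3.68-fold lower, the agonist Rspo3 at least 2.33-fold lower and the transcription factor Tcf7l2 3.94-fold lower on its leading probe set, with the others between -1.35 and 0.06. Wnt9a (1.39) and the receptor Fzd3 (0.88) rose.

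Growth factor receptors were lower in most cases, while the feedback on their signal moved in both directions. Of 33 receptor tyrosine kinases, 19 fell and 3 rose (57.6% and 9.09%). Of 33 genes of RTK and MAPK feedback, 17 fell and 11 rose (51.5% and 33.3%). Over all genes, 25% were lower and 28.7% higher. Pdgfrb, the PDGF receptor of mesenchymal cells, had 9.38, 9.64, 9.75 and 9.75 in MMS-treated cells, against 11.44, 11.49, 11.44 and 11.55 in control cells. Igf1r was 3.17-fold lower, and Irs1, the adaptor of insulin and IGF receptors, had 7.70, 7.77, 7.64 and 7.93 in MMS arrays, against 10.29, 10.40, 10.41 and 10.59 in control cells (6.34-fold lower, adjusted p = 1.5e-20). Spry1, a feedback inhibitor, was 4.52-fold lower, Rasa1, a RAS GTPase activator, 3.06-fold lower and Dusp6, an ERK phosphatase, 2.90-fold lower, while Dusp10, a phosphatase of stress kinases, was 2.34-fold higher. Of 30 growth factors, 13 fell and 5 rose: Angptl4 was 4.42-fold lower and Fgf2 2.67-fold lower, and Gdnf and Fgf21 were 2.42-fold and 2.44-fold higher. Fgf21 is also induced by the ATF4 response, a list set aside here.

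The lists of guidance molecules of axons and vessels differed in their share of falls. In the list of slits, robos and netrins, with a median span of 177 kb, 12 of 17 fell and 0 rose (median -0.71). The receptor Robo1, whose span is 1020 kb, had 3.99, 4.04, 4.05 and 3.56 in MMS-treated cells, against 6.07, 5.89, 6.09 and 6.0 in control cells, at least 3.05-fold lower, while its other probe set gave 0.12. Its ligand Slit2 was 3.08-fold lower, Ntn4 4.04-fold lower and Flrt2 4.41-fold lower. Of 30 semaphorins, plexins and neuropilins, 12 fell and 2 rose, with Sema3a 4.53-fold lower. Of 18 ephrins and Eph receptors, 4 fell and 5 rose (22.2% and 27.8%, median -0.01), near the 25% and 28.7% of all genes. In the Hedgehog pathway 7 of 13 fell and 2 rose, and the transcription factors Gli2 (-1.42) and Gli3 (-1.20) were among the falls. In the Notch pathway 5 of 21 fell and 3 rose (23.8% and 14.3%). Its share of falls was thus near that of all genes, and Hes1 stood at -1.28.

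Of 70 mesenchymal and patterning transcription factors, 38 fell and 12 rose (median -0.36). Those that fell had a median span of 83.3 kb, and those that rose 7.39 kb. Several of the largest falls were nevertheless in short genes. Snai2, a repressor of epithelial genes with a span of 3.54 kb, had 7.47, 7.89, 7.61 and 7.56 in MMS-treated cells, against 9.99, 10.14, 9.96 and 9.93 in control cells. Osr1 (7.06 kb) was 5.14-fold lower and Sox11 (8.45 kb) 4.63-fold lower. Longer than the median of all genes tested, 21.8 kb, were 2 others. Prrx2 (36.2 kb), the relative of Prrx1, was 4.86-fold lower. Hmga2 (115 kb), a chromatin protein of embryonic cells, had 10.69, 10.98, 10.77 and 10.72 in MMS arrays, against 12.78, 12.75, 12.77 and 12.80 in control cells. Foxo3 (0.78) and Msx2 (0.76) were among those that rose. Of 26 HOX genes, which encode position along the body axis, 11 fell and 5 rose, with Hoxc8 at -1.48 and Hoxd9 at 0.95. Among 16 Kruppel-like and SP factors 8 fell and 4 rose: Klf7 was 6.27-fold lower and Klf4 2.89-fold lower, like Klf2, and Klf5 2.13-fold higher. The immediate early genes split, with 11 of 27 higher and 8 lower, Egr2 at -2.25 and the orphan receptor Nr4a2 at 1.23.

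Mitosis genes fell almost as a block, with 40 of 48 lower and 2 higher (median -0.81). Anln, which organizes the cleavage furrow, had 8.39, 8.73, 8.11 and 8.43 in MMS-treated cells, against 10.30, 10.21, 10.36 and 10.27 in control cells (3.65-fold lower, adjusted p = 1.1e-15). The spindle motors Kif11 and Kif23 were 3.16-fold and 3.00-fold lower and the checkpoint kinase Bub1 2.99-fold lower. Ccnb2, the mitotic cyclin whose promoter is shown, had 7.86, 7.78, 8.03 and 8.18 in MMS arrays, against 9.29, 9.23, 9.29 and 9.24 in control cells, and its partner Cdk1 was 1.53-fold lower. Both were named after their values were seen. Tpx2, a spindle assembly factor, rose by 0.46 on its leading probe set, with the others between -0.12 and 0.31. The median span of the mitosis genes that fell was 27.4 kb, near that of those not called, 21.9 kb. Of 33 E2F, cyclin and CDK inhibitor genes, 17 fell and 2 rose. Ccnd1, the cyclin of early G1, had 9.76, 9.62, 9.66 and 9.72 in MMS arrays, against 11.37, 11.41, 11.42 and 11.37 in control cells, and its kinase Cdk6 was 3.26-fold lower. Ccne2, the cyclin of S phase entry, rose, with 8.71, 9.26, 8.97 and 8.75 in MMS arrays, against 6.89, 7.41, 7.22 and 7.14 in control cells (3.38-fold higher).

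DNA replication genes showed no common direction, with 17 of 48 higher and 16 lower. Tk1, thymidine kinase, was 3.81-fold lower and Pola1, a polymerase subunit with a span of 328 kb, 2.73-fold lower, whereas Rpa2, which coats single-stranded DNA, was 1.89-fold higher. The same held for DNA repair, with 21 of 67 higher and 21 lower. The large damage kinases were lower: Prkdc, which had 5.46, 5.88, 4.96 and 5.09 in MMS-treated cells, against 6.75, 6.38, 6.69 and 6.47 in control cells, Atm (-0.95) and Atr (-0.93), and so was the ubiquitin ligase Rad18 (-1.05). Among those that rose were the ligase Lig4 (0.93), Ercc8 (0.77) of transcription-coupled repair, and Alkbh2 (0.75), which removes alkyl groups from DNA. Mgmt, the methyltransferase that removes O-methylguanine lesions, gave -0.02 (adjusted p = 0.88), with 8.20, 8.12, 8.19 and 7.91 in MMS arrays, against 8.12, 8.02, 8.10 and 8.27 in control arrays, and the groups overlapped. Of 8 replication-dependent histone genes tested, 7 rose and 1 fell, with H3c4 at 1.06 and H3c7 at 0.81.

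Sterol and fatty acid synthesis genes were lower. Of 23 cholesterol synthesis genes, 14 fell and 1 rose (median -0.32). Hmgcs1, which makes HMG-CoA, had 9.85, 10.01, 9.97 and 9.98 in MMS-treated cells, against 11.18, 11.12, 11.28 and 11.26 in control cells, and Idi1 was 2.46-fold lower. The gene that rose was Ggps1 (0.63), which makes geranylgeranyl diphosphate, a branch of the pathway. Of 18 fatty acid synthesis genes, 10 fell and 1 rose, with the elongase Elovl6 2.69-fold and the desaturase Scd2 2.07-fold lower. Of 28 genes of glycolysis and the hypoxia response, 18 fell and 3 rose. The HIF target Ankrd37 was 4.80-fold lower and the oxygen sensor Egln3 2.4-fold lower, while Adm, a vasodilator peptide, had 11.31, 11.30, 11.41 and 11.49 in MMS arrays, against 9.78, 9.77, 9.92 and 9.78 in control cells.

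The cytokine list held more falls than rises, and the list of NF-kB genes, which regulate many cytokines, more rises than falls. Of 24 cytokines and chemokines, 9 fell and 4 rose. Ccl7, a monocyte attractant, had 7.35, 6.64, 7.04 and 7.19 in MMS-treated cells, against 9.57, 9.39, 9.58 and 9.49 in control cells, and Cxcl5 was at least 4.29-fold lower. Il6 was 3.60-fold lower and Ccl2 2.94-fold lower. Mean signals at 8 h were 5.24 in MMS and 7.09 in control arrays for Il6, and 8.34 and 9.90 for Ccl2. Control cells at 0 h had means of 4.82 for Il6, 8.36 for Ccl2, 8.47 for Ccl7 and 6.31 for Cxcl5. The neutrophil attractant Cxcl2 rose: it had 6.0, 5.42, 5.79 and 5.86 in MMS arrays, against 3.78, 3.60, 3.79 and 3.82 in control cells, which lay under the detection limit. Il11 was 2.88-fold higher, and Il1b gave -0.03 (adjusted p = 0.87). Macrophage markers were lower in the same MMS arrays (6.88 to 7.14, against 7.53 to 7.75 in control arrays), and their part in the cytokine values was not tested. In the NF-kB list, 11 of 19 rose and 3 fell (median 0.38). The subunits Nfkb2 and Rela were 1.91-fold and 1.74-fold higher and the inhibitor Nfkbie 2.24-fold higher, while of the adhesion molecules Icam1 rose (1.03) and Vcam1 fell (-1.90). Interferon-stimulated genes had few calls, with 3 of 28 higher and 4 lower.

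Among families that rose, those of protein quality control had some of the highest shares. Of 37 proteasome subunits, 31 rose and 0 fell (median 0.42), where 28.7% of all genes were higher. The changes were small and even: Psmd3 had 10.74, 10.59, 10.63 and 10.59 in MMS-treated cells, against 9.88, 9.89, 9.93 and 9.91 in control cells, a 1.67-fold rise and the largest of the list. Of 16 ubiquitin genes, 13 rose, led by Zfand2a, which binds the proteasome under stress and had 11.91, 11.90, 11.80 and 11.83 in MMS arrays, against 10.21, 9.97, 10.03 and 10.12 in control cells, and the 1 that fell was the ligase Stub1 (-0.39). Of 35 heat shock chaperones, 28 rose and 3 fell (median 0.55). Hspa1a, the inducible HSP70, had 12.33, 12.38, 12.33 and 12.40 in MMS arrays, against 8.90, 8.80, 8.88 and 9.19 in control cells, and Hspa1b was 2.57-fold higher. These genes are near-identical copies, so their probe sets may share signal. Dnaja4 (1.69), the small heat shock protein Hspb8 (1.68), Hsph1 (1.52) and Bag3 (1.38) rose, and the muscle form Hspb6 fell by 0.60. Of the 8 subunits of the chaperonin TRiC, which folds actin and tubulin, 6 rose and 0 fell.

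Metal-binding genes rose with more spread across the series. Mt1 had 13.42, 13.37, 13.51 and 13.42 in MMS-treated cells, against 12.43, 12.18, 12.41 and 12.17 in control cells, and Mt2 12.89, 12.79, 12.84 and 12.82 in MMS arrays, against 11.34, 11.03, 11.32 and 11.39 in control arrays. The groups did not overlap in either gene, and the SE from the model of all arrays was 0.36 for Mt1 and 0.37 for Mt2 (adjusted p = 0.0084 and 7e-04). The zinc exporter Slc30a1 rose by 0.78 and the importer Slc39a10 fell by 1.19, in a list with 11 of 24 higher and 6 lower. Autophagy and lysosome genes were higher in 17 of 37 cases and lower in 6, with Atg14 2.67-fold and Gabarapl1 2.65-fold higher and the lysosomal regulator Mitf 2.21-fold lower. Of 12 tubulins, 5 rose and 2 fell, with Tubb2a 2.47-fold higher.

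Of 302 zinc finger proteins named Zfp, many of them KRAB-type repressors, 184 (60.9%) were higher and 29 (9.6%) lower (median 0.37). Over all genes, 28.7% were higher and 25% lower. Zfp37 had 8.67, 9.06, 8.47 and 8.79 in MMS-treated cells, against 5.67, 6.35, 6.41 and 6.46 in control cells (5.76-fold higher, adjusted p = 2.2e-15). Zfp758 and Zfp764 were 3.15-fold and 3.10-fold higher. Control cells at 0 h had means of 7.17 for Zfp37, 6.68 for Zfp758 and 6.83 for Zfp764, beside 6.22, 5.03 and 7.35 in control cells at 8 h. Those that fell had a median span of 29.2 kb, against 15.7 kb for those that rose. Their median control level was 7.56, against 6.19. This difference in level is partly built in, since a gene near the background cannot fall measurably. Zfp469 (230 kb), Zfp462 (139 kb) and Zfp521 (286 kb) fell by 1.87, 1.23 and 1.21 on the log2 scale. Many Zfp genes resemble each other, so probes may take up signal of more than 1 of them.

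Several lists of the RNA and ribosome machinery held more rises than falls. Of 53 ribosome biogenesis factors 35 rose and 1 fell (median 0.30), with Tsr1 at 0.79 and Nop14 at 0.76, and of 31 RNA-binding motif proteins 16 rose and 2 fell. Of 48 Mediator and P-TEFb genes 26 rose and 10 fell. Hexim1, which holds the elongation kinase P-TEFb inactive, had 9.21, 8.80, 8.88 and 9.10 in MMS-treated cells, against 8.19, 7.89, 7.95 and 7.73 in control cells, and Mepce (0.91), which caps the RNA of the same complex, and Med4 (0.91) rose too. Of 11 RNA polymerase II subunits 6 rose and 1 fell, with Polr2a, the largest subunit, 1.74-fold higher on its leading probe set and 0.17 on the other. The cytosolic ribosomal proteins and the respiratory chain had few calls: 43 of 48 and 67 of 76 of their genes were not called, with medians of 0.03 and -0.01, and with Rps25 (0.62) and Ndufb1 (0.87) among the few that rose. Mitochondrial ribosomal proteins were higher in 30 of 76 cases and lower in 9. Of 572 long noncoding RNA genes tested, 22.6% were higher and 13.3% lower, against 29% and 25.6% of protein-coding genes.

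Several of the largest single rises were in genes that control cells hardly expressed. G530011O06Rik, which is annotated without a known function, had 7.42, 7.40, 7.31 and 7.56 in MMS-treated cells, against 3.24, 3.41, 3.40 and 3.55 in control cells, the largest rise (4.02 ± 0.08, adjusted p = 2.5e-26). Tent5c, a poly(A) polymerase, had 8.51, 7.76, 8.03 and 7.89 in MMS arrays, against 3.86, 4.46, 3.97 and 4.39 in control arrays. Nefm, a neurofilament subunit, had 7.33, 7.35, 7.16 and 7.36 in MMS arrays, against 3.48, 3.60, 3.32 and 3.49 in control arrays, and Dppa5a, a gene of pluripotent cells, 8.81, 8.35, 8.34 and 8.58 in MMS arrays, against 5.07, 4.84, 4.98 and 4.95 in control arrays. The control means of G530011O06Rik, Tent5c and Nefm lay under the detection limit, and against that limit the rises were at least 8.12-fold, 12.5-fold and 7.44-fold. Of 9 neural markers tested, 2 were higher, Nefm included, and 2 lower. P2rx7, an ATP-gated channel, was 7.50-fold and Serpinb1b at least 4.68-fold higher, and Rgs1 was 3.12-fold and the channel subunit Kcne4 2.21-fold higher. The cystine carrier Slc7a11 (3.70), Srxn1 (3.17) and Atf3 (2.92) also stood among the 15 largest rises, but belong to the NRF2 and stress lists, in which 33 of 53 NRF2 targets, 32 of 51 p53 targets and 54 of 83 ER stress and ATF4 genes were higher.

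Cornified envelope genes, which in the skin are made by keratinocytes, formed a cluster on chromosome 3 among the rises. Sprr1a had 8.81, 8.41, 8.91 and 8.45 in MMS-treated cells, against 5.42, 5.04, 5.02 and 5.05 in control cells. Lce1f had 11.49, 11.54, 11.59 and 11.52 in MMS arrays, against 8.03, 8.28, 8.53 and 8.64 in control cells, and its control mean at 0 h was 4.31. Lce1d was at least 5.92-fold and Lce1l at least 3.69-fold higher, with control means under the detection limit. Of 17 Lce and Sprr genes tested, a set chosen after values were seen, 9 rose and 1 fell (median 0.49), and the Lce1 copies are so alike that their probe sets may share signal. Of 9 keratinocyte markers, 3 were higher and 0 lower. Their mean was 5.07 to 5.27 in MMS arrays, against 4.76 to 5.02 in control arrays, so the groups did not overlap, and the part of these transcripts in the rise of the Lce and Sprr genes was not tested. Procr, the protein C receptor of the endothelium, had 12.61, 12.68, 12.57 and 12.66 in MMS arrays, against 9.24, 9.47, 9.59 and 9.35 in control cells (9.30-fold higher), while 2 of 7 endothelial markers were higher and 1 lower.

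**Figure D4:**
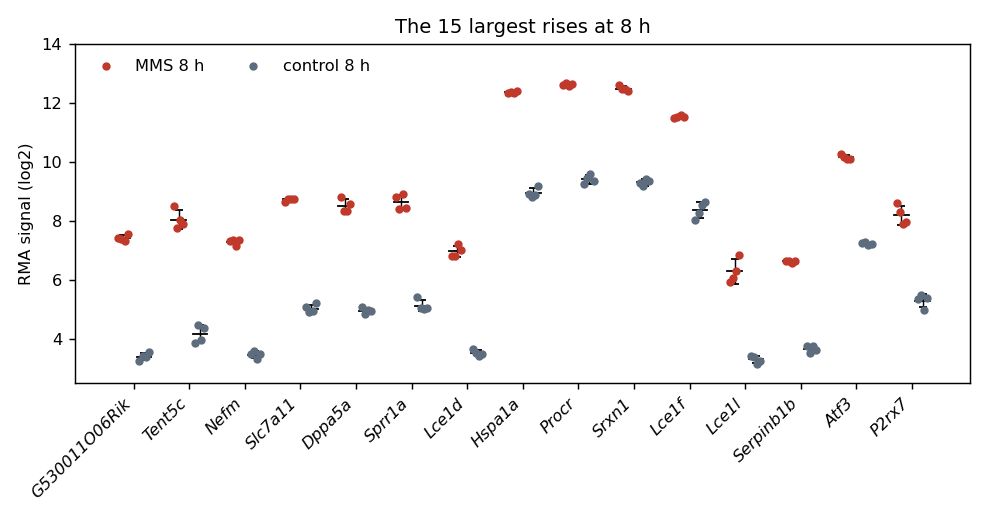
RMA signal (y axis, log2) of the 15 genes with the largest rises at 8 h (x axis), with a point per array, MMS 8 h in red on the left and control 8 h in grey on the right of each gene. Black lines give the mean and SD over 4 arrays. Hspa1a, Procr and Srxn1 reach signals above 12 in MMS arrays, while Nefm and G530011O06Rik start under 4 in control arrays.

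The size of the MMS effect at 24 h was set against that at 8 h for the 10 largest falls and the 10 largest rises, which had been chosen by their 8 h values, so that a smaller value at 24 h is partly built in. The difference passed the test (adjusted p under 0.05 over all genes) for 10 of the 10 falls and 6 of the 10 rises. Has2 was 4.43 lower at 8 h and 0.83 higher at 24 h (difference 5.26), and Neat1, Fgf7 and Ccbe1 were at 0.64, 0.35 and -0.08 at 24 h. Epha3 (-1.96), Cdh10 (-1.63) and Klhdc8a (-1.39) were still lower at 24 h. Of the rises, G530011O06Rik, Tent5c, Nefm and Dppa5a had 0.36 to 0.77 left at 24 h. Procr (3.43), Lce1d (3.05), Sprr1a (2.88) and Srxn1 (2.76) stayed high, and for these 4 the difference between times did not pass the test. By list, mitosis genes had a median of -0.81 at 8 h and 0.19 at 24 h, and collagens -0.55 and -1.08. Cholesterol synthesis genes had -0.32 and -0.96. For genes of 160 to 320 kb and over 320 kb the 24 h medians were -0.18 and -0.30, beside -0.42 and -0.40 at 8 h. Since the 8 h arrays of both groups stood apart from all others in their macrophage markers, the time and what separated those arrays cannot be told apart.

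**Figure D5:**
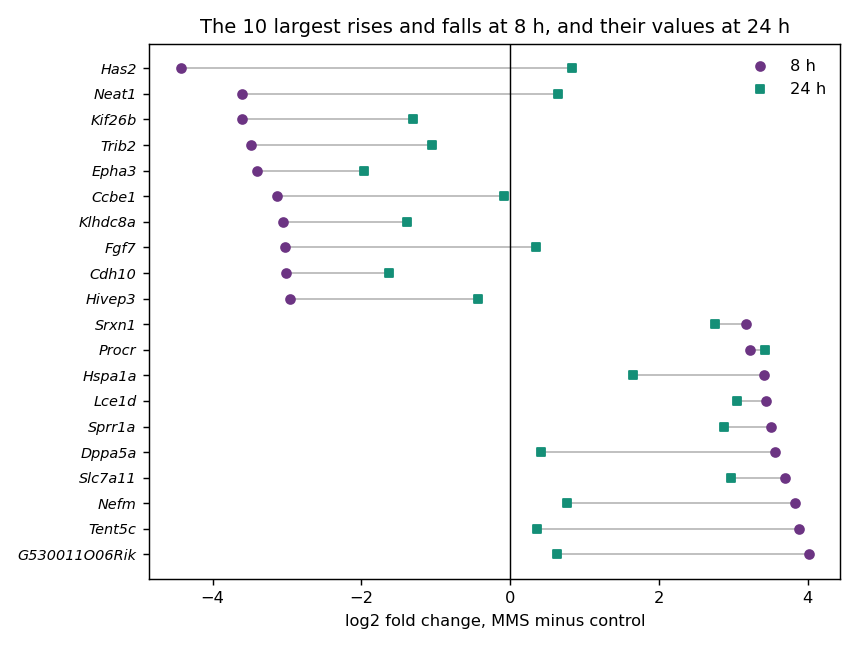
Log2 fold change of MMS over control (x axis) at 8 h (purple circles) and 24 h (green squares) for the 10 largest falls and the 10 largest rises at 8 h (y axis). Has2, Neat1 and Fgf7 lie on opposite sides of 0 at the 2 times, and Procr lies near its 8 h value.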

How the data were processed

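The authors normalized Affymetrix mouse arrays with RMA, and the deposited table holds log2 values of 45101 probe sets on 35 arrays (range 2.44 to 14.62). The version of RMA and the summarizing tool are not given in the sources used here. Probe sets with 1 gene symbol were used (34958), with 932 of several symbols and 9211 of none left out, and where several probe sets measured 1 of the 18194 genes, the brightest on average was taken. Genes with at least 1 group mean over the 40th percentile (log2 4.4) entered the test, 14135 in all. The contrast of MMS and control at 8 h was taken from a limma fit (version 3.58.1, R 4.3.3) to the 35 arrays with 26 residual degrees of freedom and two-sided p-values adjusted by Benjamini-Hochberg over all genes tested. Calls needed an adjusted p under 0.05. "Rose" and "fell" refer to called genes and compare the 8 h groups with each other, not with 0 h. Signed values are log2 fold changes, MMS minus control, and errors are SE of the model.

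The members, the 81 gene lists and the tests were chosen with earlier results of these data known. Named genes were the 25 largest falls and 15 largest rises with no overlap between the 4 MMS and 4 control values, at most 6 rises and 6 falls from each list by that criterion, whole families of up to 12 members, and members nearest to no change, with exceptions stated beside their values. Genomic spans and promoters came from RefSeq (GRCm38.p6), in which 99.4% of the probe sets with 1 symbol were found. The fit was tested on simulated data. The precision is limited by the number of arrays. Alternatives changed the normalization, filter, probe set, arrays, weights and test, added the replicate number as a block and left out each array in turn.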

Additional observations from a re-analysis of the deposited data

Results flagged for a closer look

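Groups of 4 arrays were taken over the genes named and the 3' minus 5' differences of Gapdh and Actb. In 26 of 462 groups, 1 array lay apart from the other 3 by more than Dixon's critical value for the gap as a share of the group's range. Chance gives about 1 in 20 groups. Most of these arrays belonged to a tight group, in which a small gap is enough. Among genes that fell, the array apart had 7.72 for Prrx1 (MMS replicate 3), 8.06 for Atxn1 (control replicate 1), 8.40 for Col11a1 (control replicate 2), 9.93 for Sdc2 (control replicate 2), 3.56 for Robo1 (MMS replicate 4), 5.07 for Kif11 (MMS replicate 4), 5.27 for Pola1 (MMS replicate 1), 10.91 for Stub1 (MMS replicate 1) and 8.62 for Slc39a10 (MMS replicate 2). Among genes that rose, it had 8.66 for Slc7a11 (MMS replicate 1), 9.64 for Dusp10 (MMS replicate 4), 5.50 for Fzd3 (control replicate 3), 9.92 for Adm (control replicate 3), 3.60 for Cxcl2 (control replicate 2), 5.99 for Rgs1 (MMS replicate 3) and 7.27 for Irs2 (control replicate 1). It was also seen in Nefm with 7.16 (MMS replicate 3), Sprr1a with 5.42 (control replicate 1), P3h1 with 9.63 (MMS replicate 1), Zfp37 with 5.67 (control replicate 1), Polr2a with 9.83 (MMS replicate 2), Ciart with 6.44 (control replicate 2), Cry2 with 6.47 (control replicate 2), Kdm6b with 9.14 (MMS replicate 4) and Atg14 with 8.29 (MMS replicate 1) and 6.52 (control replicate 2).

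The MMS effect at 24 h minus that at 8 h passed the limma test of the difference for 16 of the 20 genes in which it was looked at. Among the falls it was 5.26 for Has2, 4.24 for Neat1, 3.39 for Fgf7, 3.06 for Ccbe1, 2.53 for Hivep3, 2.43 for Trib2, 2.29 for Kif26b, 1.66 for Klhdc8a, 1.45 for Epha3 and 1.38 for Cdh10. Among the rises it was -3.51 for Tent5c, -3.40 for G530011O06Rik, -3.14 for Dppa5a, -3.06 for Nefm, -1.77 for Hspa1a and -0.73 for Slc7a11. These genes were chosen by their 8 h values, and the arrays of both 8 h groups carried macrophage transcripts (6.88 to 7.14 in MMS arrays and 7.53 to 7.75 in control arrays, beside 4.59 to 5.05 in MMS arrays and 4.25 to 4.34 in control arrays at 24 h), whose part in these differences was not tested.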

How the results depend on the processing

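Under 22 alternatives, the count of genes called higher ranged between 3236 (Welch's test per gene) and 4429 (quantile normalization), and that of lower genes between 2999 (Welch's test per gene) and 3734 (without 4 arrays of other groups with intestinal transcripts). Leaving out 1 of the 8 arrays gave 3808 to 3972 higher and 3347 to 3464 lower genes. With a fold limit added, the calls were 435 higher and 745 lower genes at 2-fold and 1413 and 1646 at 1.5-fold. Averaging every probe set of each gene left 428 genes at least 2-fold lower, against 745, and 6490 of the 7588 calls kept their direction (the cause was not tested). Genes over 160 kb were called lower in 468 to 548 cases, against 538. Centring arrays on their median moved the median of all genes to 0.10 and the share of higher genes among calls to 58%, against 53.5%. All 229 genes named kept their call under each alternative in which they were tested. Of 81 list medians, 2 turned their sign: potassium channels (0.10) had -0.05 with a filter at the 60th percentile, and adipocyte markers (-0.53) had 0.01 with no filter. Whether the replicate numbers shared by the groups pair the arrays was not settled. Deviations of same-numbered arrays correlated only weakly, at 0.11, 0.09, -0.04 and 0.03, but 3 of 4 arrays matched their own number best. With the replicate block, 3827 genes were higher and 3361 lower in the 8 h arrays alone, and 4287 and 3670 with the block within each time. A fall in a gene near the background of the arrays could not be measured.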

Other observations

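Clock genes were higher in MMS-treated cells in 10 of 20 cases and lower in 3, with a median of 0.14. Ciart, a repressor within the clock, had 7.35, 6.98, 7.12 and 7.40 in MMS arrays, against 6.16, 6.44, 6.18 and 6.21 in control arrays, and the groups did not overlap. The cryptochromes Cry1 (0.62) and Cry2 (0.62), which repress CLOCK and BMAL1, and the output factor Tef (0.67, with its other probe sets at 0.43 and -0.11) rose as well. Dbp, an output factor of the same family as Tef, was 1.90-fold lower, with 5.53, 5.78, 6.22 and 6.17 in MMS arrays, against 6.66, 6.97, 7.04 and 6.72 in control arrays, and the repressor Bhlhe40 was 1.65-fold lower.

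In the insulin-like growth factor axis, 11 of 18 genes fell and 4 rose (median -0.42). Pappa, a protease that frees IGF from its binding proteins, had 5.80, 5.32, 5.11 and 5.21 in MMS arrays, against 7.11, 7.15, 6.90 and 6.94 in control arrays, although 1 of its 3 probe sets gave -0.04, and the binding protein Igfbp5 was 2.44-fold lower. The binding protein Igfbp3 and the adaptor Irs2 rose, by 0.63 and 0.73, whereas the related adaptor Irs1 was among the larger falls named above. Of 27 nuclear receptors, 8 fell and 5 rose (29.6% and 18.5%, against 25% and 28.7% of all genes). The orphan receptors Nr2f1 (-1.56, with an MMS mean under the detection limit) and Nr2f2 (-1.12) were lower. Ppard, a receptor for fatty acids, was 2.03-fold higher on its leading probe set and -0.07 on the other. Histone methylation enzymes showed no common direction, with 13 of 37 higher and 11 lower, among them the demethylase Kdm6b (0.83, with its other probe sets at 0.55 and -0.08) and the methyltransferase Nsd3 (-1.01, with its other probe sets between -0.32 and 0.06).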
